A study of Mus musculus with 9 samples.

Results

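Mouse hearts (C57BL/6, an inbred strain) were compared between the 3 libraries whose titles start with KKA and the 3 whose titles start with WA. These are 6 of the 9 RNA sequencing libraries of the series, and they were taken by the leading letters of the title, without use of any measured value. KKA replicate 1 is KKA_K084, replicate 2 is KKA_187 and replicate 3 is KKA_186. All 3 carry the description Kmo+Ang II and the treatment Ang II, which abbreviates angiotensin II, the pressor peptide that loads the heart. WA replicate 1 is WA_130 and WA replicate 2 is WA_127, both labelled Ctrl and PBS, a salt buffer. WA replicate 3 is WA_132, labelled Ang II. The WA libraries therefore hold both agent labels, and no KKA library is labelled PBS. Where a library is said below to be given an agent, that follows its label only. The labels explain neither the letters nor what Kmo stands for, and the labels give no genotype, age, sex, dose or duration. The WC libraries, titled WC_184 (PBS), WC_3 (Ang II) and WC_182 (Ang II), entered only the shared estimate of spread and are given as a reference. No label says that libraries of 1 prefix came from separate animals, so the p-values measure the spread between these libraries, which may be technical.

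The title of the series concerns the deubiquitinase JOSD2 and SERCA2a in cardiac hypertrophy. SERCA2a, encoded by Atp2a2, is the pump that returns calcium to the sarcoplasmic reticulum after each beat. A heart under pressure load enlarges its muscle cells, re-expresses fetal genes such as Acta1 and Nppb, loses expression of genes of fatty acid oxidation, and takes up monocytes and lymphocytes. Chaperones of the cytosol and of the endoplasmic reticulum help its proteins to fold, and both sets are induced by protein stress.

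Total counts were 60744283 to 73194268 in KKA and 61569672 to 68297638 in WA, and 19091 of 55401 genes had enough counts to be tested. Heart muscle markers were present in all 6 libraries: Myh6, the alpha myosin heavy chain, stood at 8389.8 to 16348 CPM (the usual per-library scaled count, here with library sizes adjusted by TMM, which balances the bulk of genes between libraries). Mitochondrially encoded genes took 42.5% ± 12.5 (SD, n = 3) of counts in KKA and 42.1% ± 11.2 (SD, n = 3) in WA (two-sided exact permutation p = 0.9). Haemoglobin genes took 0.0441% ± 0.0152 (SD, n = 3) and 0.0279% ± 0.0118 (SD, n = 3), with an exact permutation p of 0.3. With 3 libraries against 3 the smallest p possible is 0.1. The haemoglobin share was 0.345% to 0.986% in WC, above all 6.

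The libraries of the KKA prefix did not lie together. The root mean square distance over all tested genes, on the log2 CPM scale, was 0.792 to 0.999 from KKA replicate 1 to the WA libraries. It was 1.07 from KKA replicate 1 to KKA replicate 2 and 1.296 to KKA replicate 3, so replicate 1 was nearer to every WA library than to either library of its own prefix. KKA replicate 2 lay 0.832 to 0.885 from the WC libraries and 1.03 to 1.18 from WA. KKA replicate 3 lay 1.02 to 1.13 from WC and 1.253 to 1.292 from WA. The median gene had a range of 0.94 on the log2 scale within KKA, 0.60 within WA and 0.55 within WC. KKA replicate 1 was inside the WA range at 54.4% of genes, KKA replicate 2 at 36.0% and KKA replicate 3 at 30.8%. Results are also given without KKA replicate 1. That library is singled out because its values lie nearest to WA, so leaving it out favours larger differences and smaller p by construction. Values from that fit describe KKA replicates 2 and 3 against WA and are no independent evidence of a difference between the prefixes.

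Kmo, the gene of kynurenine 3-monooxygenase in tryptophan breakdown, bears the name in the KKA label and was measured first. Its level was 0.299, 0.473 and 0.849 CPM in KKA replicates 1, 2 and 3, against 1.002, 0.886 and 1.26 CPM in WA replicates 1, 2 and 3. The KKA libraries were all below WA, but transcript was present in each of them, and the difference was -0.97 ± 0.59 on the log2 scale (SE; edgeR quasi-likelihood adjusted p = 0.741). WC spanned 0.247 to 1.16 CPM, which holds 5 of these 6 values.

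Across all genes no difference between KKA and WA passed edgeR's quasi-likelihood test, with 0 of 19091 called at an adjusted p under 0.05 (0%) and 0.231 as the smallest adjusted p. At an unadjusted p under 0.05 there were 1345 genes (7.05%), of which 1115 were higher in KKA (5.84%) and 230 lower (1.2%). All KKA libraries lay above all WA libraries at 1081 genes (5.66%) and below them at 481 (2.52%). The median log2 difference over all genes was 0.05, and 54.8% of genes had a positive one. Library size as the only scaling moved that median to 0.16, left 1104 genes above and 133 below, and called 1 gene (0.00524%). DESeq2's Wald test called 91 genes, 81 higher (0.424%) and 10 lower (0.0524%), and the groups did not overlap at 71 of the former and 8 of the latter. Limma-voom called 0 genes. Of 100 genes changed 4-fold in simulated data with the same groups the edgeR fit recovered 60, and of 100 changed 2-fold it recovered 9. The simulation gave every gene the same spread, left low-count genes unchanged and held no split among the KKA libraries. Its recovery therefore does not carry over to these data.

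Leaving out KKA replicate 1 changed the count of calls more than leaving out any other library. It gave 1709 calls among 19742 genes, 794 higher (4.02%) and 915 lower (4.63%). Leaving out each of the other 5 libraries gave 0 to 3 calls. Of the 794 genes called higher, 572 overlapped with WA once KKA replicate 1 was put back, and of the 915 called lower 883 did.

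**Figure D1:**
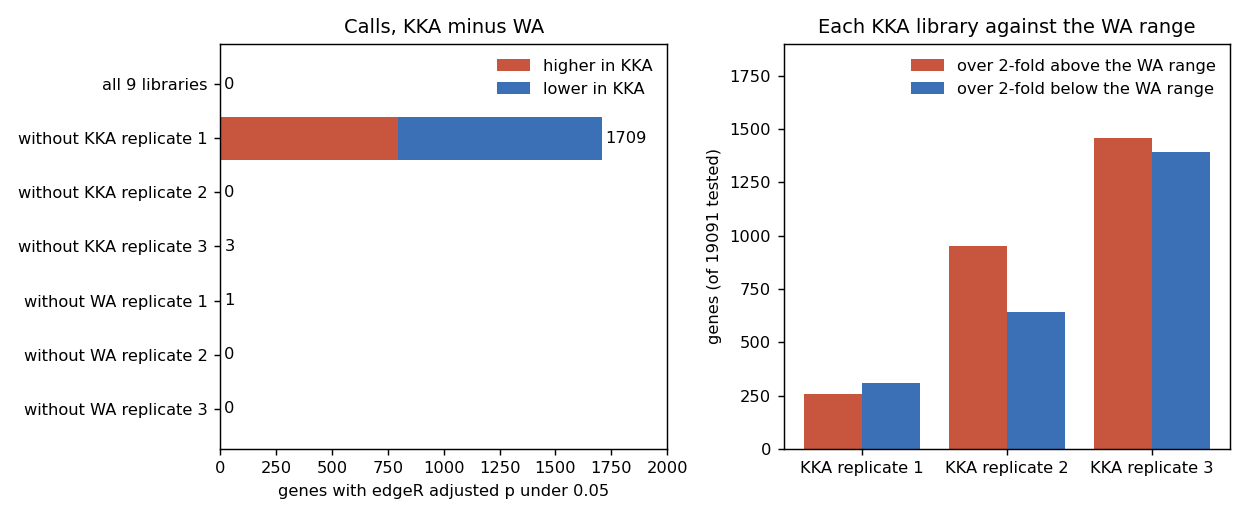
The left panel gives the number of genes with an edgeR adjusted p under 0.05 in KKA minus WA with all 9 libraries and without each of the 6 in turn, split by direction. The right panel gives, for each KKA library, the number of genes over 2-fold above the highest or below the lowest WA library: 255 and 311 in replicate 1, 951 and 644 in replicate 2, 1461 and 1391 in replicate 3.

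The gene with the smallest p was Cyp26b1, an enzyme that degrades retinoic acid. It stood at 31.0, 11.5 and 12.9 CPM in KKA replicates 1, 2 and 3 and at 2.10, 2.29 and 1.88 CPM in WA. All KKA libraries lay above WA, and the difference was 3.14 ± 0.42 on the log2 scale (SE; edgeR adjusted p = 0.231). WC lay between, at 5.33 to 10.9 CPM. Cyp26b1 was the 1 gene called when only library size was scaled and the 1 called without a low-count filter (0.00327% of genes tested there), and it also passed DESeq2 and the edgeR fit without KKA replicate 1 (2.54 ± 0.30, adjusted p = 0.00734).

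T and NK cell genes were higher in KKA with little difference among the 3 libraries. All 21 members of the list had a positive log2 difference, the median was 1.51, and at 13 of 21 (61.9%) every KKA library lay above every WA library, where 5.66% of all genes did. Their summed level was 15.9 to 19.3 CPM in KKA and 4.44 to 6.95 CPM in WA. None was called by edgeR. The median was 1.52 to 1.95 with each of the 6 libraries left out in turn, lowest without KKA replicate 1.

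Trbc2, a constant segment of the T cell receptor beta chain, stood at 1.23, 1.37 and 1.12 CPM in KKA and 0.167, 0.174 and 0.136 CPM in WA, a difference of 2.96 ± 0.49 on the log2 scale (SE; edgeR adjusted p = 0.390). Its near-identical neighbour Trbc1 makes the split of reads between the pair uncertain. Cd8a, a co-receptor of cytotoxic T cells, stood at 2.87, 2.70 and 2.31 CPM in KKA. In WA it stood at 0, 0.469 and 0.136 CPM. Lck, the kinase next to the T cell receptor, had 1.53, 1.86 and 1.64 CPM against 0.382, 0.643 and 0.470 CPM, and Nkg7, a granule protein of killer cells, had 1.19, 1.49 and 0.612 CPM against 0.0954, 0.313 and 0.161 CPM. The groups did not overlap at any of the 4. Trbc2, Cd8a and Lck were the 3 of 21 members called without KKA replicate 1, where 4.02% of all genes were called higher. Their edgeR adjusted p were 0.016, 0.0354 and 0.0428, and DESeq2 called all 4 genes above with every library in.

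These levels are a few CPM in bulk tissue, where fewer cells of a type and less RNA per cell cannot be told apart. Red blood cell genes, a measure of blood held in the sample, had a median log2 difference of 0.32 and summed to 348 to 494 CPM in KKA and 124 to 497 CPM in WA, so those ranges overlapped. Platelet genes, also carried by blood, were positive at 10 of 10 with a median of 1.79. The groups did not overlap at 3 (30%, against 5.66% of all genes). With library size as the only scaling 1 lay above WA, where 1104 of all 19091 genes did. The level of the platelet list was -0.88, 0.45 and 1.79 in KKA replicates 1, 2 and 3, above the WA range of -1.57 to -0.94. The part of blood in the lymphocyte result was not tested. The level of the T and NK list (mean log2 CPM of its members minus their mean over all 9 libraries) was -0.37 to 0.47 in WC, 0.74 to 0.96 in KKA and -1.56 to -0.69 in WA.

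**Figure D2:**
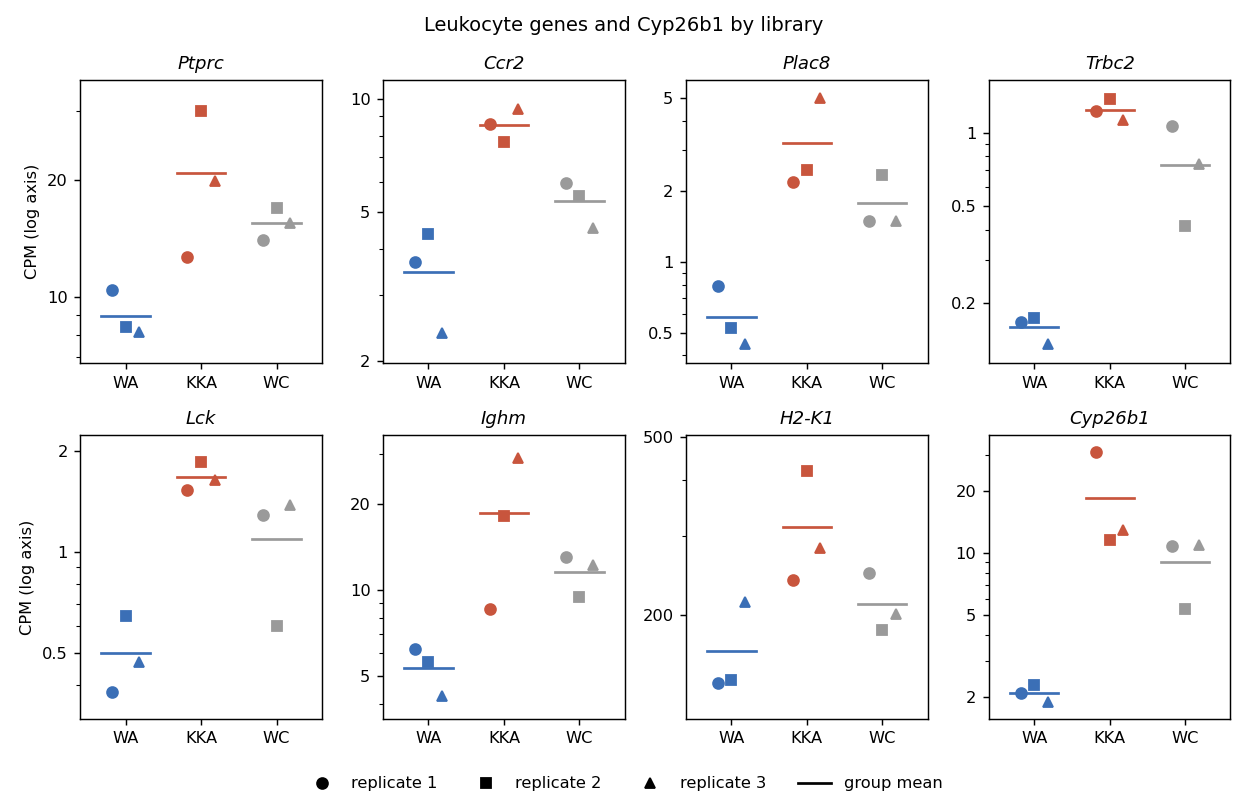
Each panel gives the CPM of 1 gene on a log axis in the WA, KKA and reference WC libraries, with a symbol for each replicate and a line at the group mean. At all 8 genes the lowest KKA library lies above the highest WA library, and the WC libraries lie between the groups or overlap with one or both.

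Among general leukocyte genes, Ptprc, the CD45 phosphatase of all white blood cells, stood at 12.7, 30.2 and 19.9 CPM in KKA replicates 1, 2 and 3. WA had 10.4, 8.37 and 8.12 CPM, and the difference was 1.22 ± 0.28 on the log2 scale (SE; edgeR adjusted p = 0.626). Cd52, a surface glycoprotein of leukocytes, had 3.57, 10.4 and 5.39 CPM against 1.88, 2.24 and 1.72 CPM. Gimap3, a GTPase of lymphocytes, had 4.43, 4.15 and 3.16 CPM against 1.36, 0.938 and 1.03 CPM. S100a4, a calcium-binding protein of leukocytes and fibroblasts, had 3.19, 5.26 and 5.72 CPM against 0.954, 1.44 and 1.94 CPM. KKA replicate 1 was the lowest KKA library for Ptprc, Cd52 and S100a4 and the highest for Gimap3.

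Macrophage and monocyte genes were also higher, but unevenly. All 24 had a positive log2 difference, with a median of 0.86, and at 5 of 24 (20.8%, against 5.66% of all genes), Aif1, Ccr2, Fcgr1, Plac8 and Trem2, the groups did not overlap. When library size was the scaling 11 of 24 lay above WA, where 1104 of all 19091 genes did. That scaling also moved the median of all genes from 0.05 to 0.16. The list's level was -0.24 in KKA replicate 1, just above the WA range of -0.55 to -0.27, and 0.46 and 1.002 in replicates 2 and 3. By summed level KKA replicate 1 was inside the WA range, at 237 CPM against 210 to 271 CPM. Replicates 2 and 3 summed to 482 and 569 CPM. Ccr2, the chemokine receptor by which monocytes leave the marrow and enter tissue, stood at 8.59, 7.69 and 9.39 CPM in KKA and 3.67, 4.36 and 2.38 CPM in WA. It differed by 1.304 ± 0.27 on the log2 scale (SE; edgeR adjusted p = 0.562). Plac8, abundant in inflammatory monocytes, had 2.20, 2.47 and 4.97 CPM against 0.787, 0.521 and 0.446 CPM. Trem2, a lipid receptor of macrophages, had 1.49, 2.93 and 5.13 CPM against 0.978, 0.903 and 0.829 CPM. Aif1, which encodes the macrophage protein IBA1, had 2.68, 1.53 and 3.71 CPM against 0.859, 0.782 and 0.879 CPM. Lyz2, the lysozyme with the highest level of the list, overlapped, at 80.3, 150.3 and 158 CPM in KKA and 89.5, 90.8 and 66.6 CPM in WA. Without KKA replicate 1, 14 of 24 had an edgeR adjusted p under 0.05, all higher (4.02% of all genes in that fit), among them the complement genes C1qa, C1qb and C1qc.

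Genes of antigen presentation had positive differences at 18 of 18, with a median of 0.59. The groups did not overlap at 3 (16.7%): H2-K1 and H2-T23, class I heavy chains, and Psmb8, a subunit of the immunoproteasome that makes their peptides. In this direction 5.66% of all genes were separated. When library size was the scaling only 1 of 18 lay above WA, where 1104 of all 19091 genes did. The count therefore depended on the scaling. H2-K1 stood at 239, 420.1 and 283 CPM in KKA and 141, 143 and 215 CPM in WA, and class I genes share sequence, which makes single members uncertain. Psmb8 had 20.2, 25.9 and 19.8 CPM against 9.64, 10.3 and 19.3 CPM. WA replicate 3, given Ang II, was the highest WA library for both. Cytokines and chemokines were positive at 28 of 29, with a median of 0.64. All KKA libraries lay above WA at 5 (17.2%, against 5.66% of all genes), Ccl4, Ccl5, Cxcl5, Il18 and Tnf. They lay below WA at 1 (3.45%, against 2.52% of all genes), Cxcl2, the 1 negative member. The list summed to 320 CPM in KKA replicate 1, inside the WA range of 296 to 343 CPM, and to 487 and 611 CPM in replicates 2 and 3. Ccl5, a chemokine made by T cells, had 2.63, 2.81 and 1.22 CPM against 0.143, 0.625 and 0.384 CPM. Its difference was 2.51 ± 0.54 (SE; edgeR adjusted p = 0.565). Il18, an inflammatory cytokine, was at 0.323, 0.549 and 1.03 CPM in KKA and without a count in WA. Ighm, the heavy chain of IgM, had 8.58, 18.2 and 29.1 CPM against 6.20, 5.61 and 4.26 CPM, while 9 of 12 B cell genes were positive with a median of 0.46.

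Interferon-stimulated genes were positive at 26 of 31, with a median of 0.29, and did not overlap at 4 (12.9%, against 5.66% of all genes): Iigp1, Irgm1, Mx1 and Zbp1. When library size was the scaling 2 of 31 lay above WA, where 1104 of all 19091 genes did. Mx1, an antiviral GTPase, stood at 2.45, 3.87 and 3.99 CPM in KKA and 1.503, 0.973 and 1.39 CPM in WA. The median of this list depended on the WA libraries used. Against WA replicate 3 alone, the library given Ang II, its median was -0.06, and against the pair given PBS it was 0.45. The list's level did not follow the agent in WC, at 0.12 in the library given PBS and -0.40 and 0.31 in those given Ang II. For T and NK genes the same medians were 1.75 and 1.61, and for macrophage genes 0.997 and 0.86.

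Heat shock genes were lower in KKA on average throughout the list, though 15 of 20 overlapped between the groups. The list summed to 6404 CPM in KKA replicate 1, inside the WA range of 5672 to 6772 CPM. It summed to 2861 and 1872 CPM in replicates 2 and 3. All 20 had a negative log2 difference, with a median of -0.72, and at 5 (25%) every KKA library lay below every WA library, where 2.52% of all genes did. None passed edgeR. Hspa1a, the inducible HSP70, stood at 4.65, 4.51 and 2.51 CPM in KKA and 8.51, 5.80 and 15.5 CPM in WA. Its near-identical copy Hspa1b makes this value uncertain. Hsph1, which reloads HSP70 with ATP, had 27.7, 10.8 and 15.5 CPM against 31.4, 32.8 and 42.5 CPM (-0.98 ± 0.30, SE; edgeR adjusted p = 0.649). Dnajb1, a J-domain partner of HSP70, had 7.00, 8.07 and 7.08 CPM against 10.7, 13.2 and 10.6 CPM. Stip1, a co-chaperone outside the list that joins HSP70 to HSP90, had 49.3, 32.2 and 31.0 CPM against 68.8, 74.2 and 66.0 CPM.

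Genes of the unfolded protein response, the set induced by misfolded protein in the endoplasmic reticulum, were negative at 18 of 23, with a median of -0.43. At 6 (26.1%, against 2.52% of all genes), Calr, Dnajc3, Hsp90b1, Manf, Pdia4 and Sdf2l1, all KKA libraries lay below WA. Manf, a secreted protein of that compartment, stood at 23.9, 12.2 and 22.1 CPM in KKA and 39.2, 41.5 and 43.6 CPM in WA, a difference of -1.09 ± 0.25 on the log2 scale (SE; edgeR adjusted p = 0.626). Sdf2l1, part of a chaperone complex there, had 2.83, 1.59 and 1.28 CPM against 3.72, 4.34 and 7.72 CPM. Hsp90b1, which encodes GRP94, the HSP90 of this compartment, had 230.3, 101 and 131 CPM against 244, 241 and 324 CPM. Calr, the calcium-binding chaperone calreticulin, had 174, 105 and 127 CPM against 185, 206 and 193 CPM. Hyou1, a chaperone outside the list, had 21.9, 19.0 and 23.6 CPM against 29.5, 40.5 and 32.6 CPM. Hspa5, which encodes BiP, the most abundant member, overlapped, at 283, 100.04 and 111 CPM against 224, 308 and 328 CPM. Genes lower in every KKA library were ranked by p if their mean log2 CPM was at least 1 and their symbol was not a predicted gene model. Of the 15 with the smallest p, 7 were members of these 2 lists. The lists hold 20 and 23 of 19091 genes tested. They were chosen with earlier results of these data known, so this count is no test.

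The separation of the groups at these chaperones was narrower than at the T cell genes. KKA replicate 1 was the highest KKA library for Hsph1, Stip1, Manf, Sdf2l1, Hsp90b1 and Calr, and its heat shock level of 0.48 was close to the WA range of 0.56 to 0.74, while replicates 2 and 3 stood at -0.30 and -0.68. With library size as the only scaling no member of either list had all KKA libraries below WA. The medians stayed negative at -0.51 and -0.31. At 14 of 21 T and NK genes all KKA libraries lay above WA with that scaling. Of all 19091 genes 133 lay below WA there and 1104 above it. The 2 directions therefore had unlike backgrounds, and these counts are not compared. Without KKA replicate 1 edgeR called 14 of 20 heat shock genes and 7 of 23 unfolded protein response genes, all lower, where 4.63% of all genes were called lower. WC was low as well, with a heat shock level of -0.54 to -0.39.

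**Figure D3:**
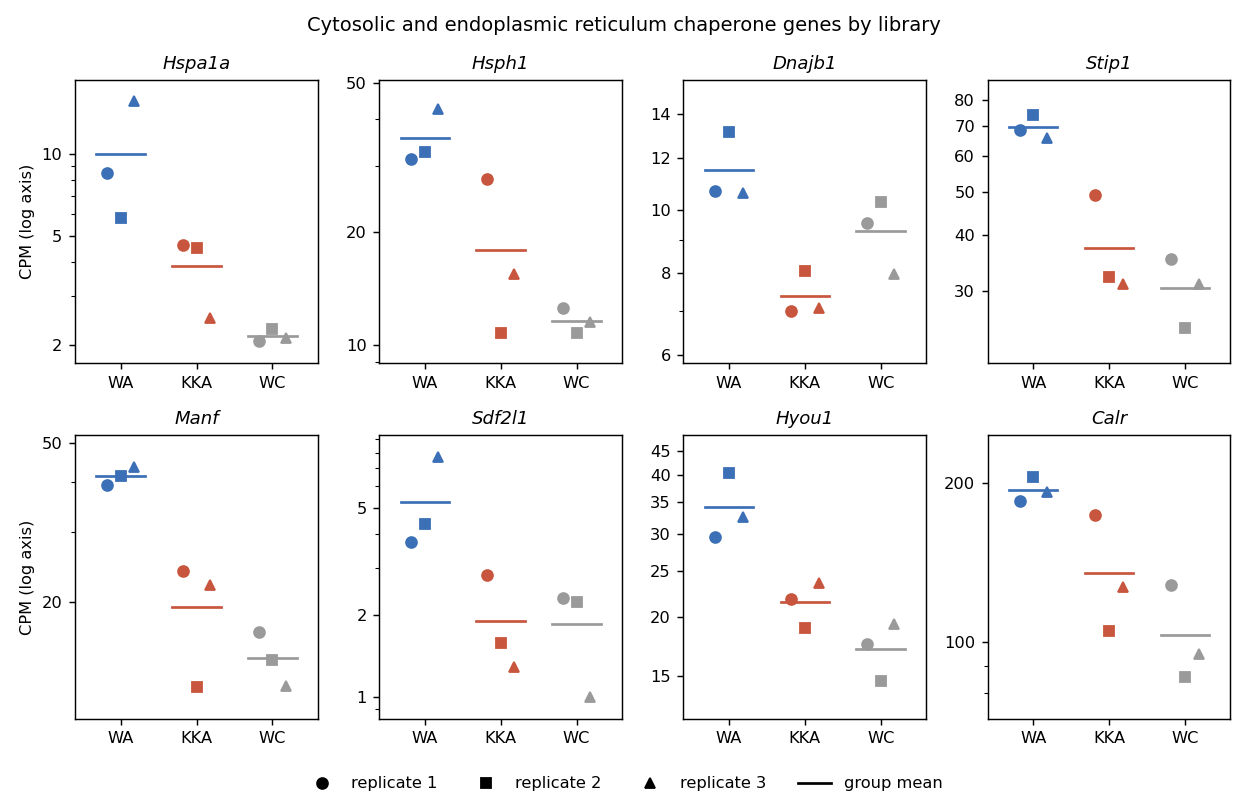
Each panel gives the CPM of 1 chaperone gene on a log axis in the WA, KKA and reference WC libraries, with a symbol for each replicate and a line at the group mean. All KKA libraries lie below all WA libraries, and replicate 1 (circles) is the KKA library nearest to WA at Hspa1a, Hsph1, Stip1, Manf, Sdf2l1 and Calr.

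Many genes of the unfolded protein response share a promoter sequence, the endoplasmic reticulum stress element, and the members that lay below WA were searched for it. The letters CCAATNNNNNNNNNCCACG on either strand were found in 0.113% of 32851 mouse promoters (the 250 bases before each RefSeq start site, build GRCm38.p6). It was held by 7 of the 21 list members with a promoter there, Calr, Canx, Creld2, Dnajc3, Hsp90b1, Hspa5 and Pdia6. Among the 5 found of the members below WA in every library, Calr, Dnajc3 and Hsp90b1 held it. The stretches before Calr (chr8:84846932-84847181, minus strand) and Hsp90b1 (chr10:86705445-86705694, minus strand) are shown 5′ to 3′ along the gene because both genes lay below WA, with the matches in capitals. The match of Calr reads on the opposite strand, and Hsp90b1 has 1 match on each strand. GRCm38.p6 is not the mm8 build named for the counts, and the promoters were joined by gene symbol.
Calr: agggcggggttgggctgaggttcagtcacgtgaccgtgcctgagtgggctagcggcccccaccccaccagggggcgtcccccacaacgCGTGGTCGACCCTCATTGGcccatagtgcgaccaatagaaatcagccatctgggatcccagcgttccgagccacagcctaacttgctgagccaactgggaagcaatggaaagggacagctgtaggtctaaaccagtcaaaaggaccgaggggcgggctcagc
Hsp90b1: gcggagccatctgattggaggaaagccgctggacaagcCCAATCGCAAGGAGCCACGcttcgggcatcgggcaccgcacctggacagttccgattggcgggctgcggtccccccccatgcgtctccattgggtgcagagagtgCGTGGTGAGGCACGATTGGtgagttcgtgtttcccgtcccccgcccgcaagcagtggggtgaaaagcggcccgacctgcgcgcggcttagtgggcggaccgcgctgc
The heat shock element, searched as GAANNTTCNNGAA on either strand, was in 0.466% of promoters and in Hspd1 and Hspe1 among 15 heat shock genes found. Neither lay below WA in every KKA library, and the element was in 0 of the 4 genes found that did. These matches describe letters only, and no binding was measured.

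Muscle and energy genes were lower in KKA on average and divided its libraries. Nuclear genes of oxidative phosphorylation were negative at 32 of 32 with a median of -0.50, but their list level was 0.91 in KKA replicate 1, above the WA range of 0.37 to 0.65, and -0.32 and -1.27 in replicates 2 and 3. Fatty acid oxidation was negative at 23 of 24 (median -0.53), with levels of 0.89, -0.23 and -1.32. Glycolysis was negative at 21 of 21 (median -0.42), the sarcomere at 20 of 23 (median -0.52) and the proteasome at 26 of 26 (median -0.34). Only 1 gene of these 5 lists, Psmc4 of the proteasome, had all KKA libraries below WA. Without KKA replicate 1, edgeR called 21 of 32 oxidative phosphorylation genes, 13 of 24 of fatty acid oxidation, 9 of 23 of the sarcomere, 6 of 21 of glycolysis and 10 of 26 of the proteasome, all lower (4.63% of all genes in that fit). Without KKA replicate 3 the medians of the first 2 lists were -0.13 and -0.10.

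Single genes show how far the KKA libraries lay apart. Acta1, the skeletal actin that the loaded heart re-expresses, stood at 633, 39.6 and 12.98 CPM in KKA replicates 1, 2 and 3 and at 686, 678 and 617 CPM in WA. KKA replicate 1 was at the level of WA, and replicate 3 was at that of WC, which had 11.3 to 17.4 CPM. Across WA and WC, Acta1 went with the prefix and not with the agent label. The WA libraries labelled PBS had 686 and 678 CPM, and the WC libraries labelled Ang II had 11.3 and 17.4 CPM. The difference between KKA and WA was -1.53 ± 1.07 on the log2 scale (SE; edgeR adjusted p = 0.748), and -4.65 ± 0.49 without KKA replicate 1 (adjusted p = 0.00656). Nppb, which encodes B-type natriuretic peptide, had 533, 96.8 and 23.1 CPM against 474, 350.3 and 286 CPM. Tnfrsf12a, the receptor of the cytokine TWEAK, had 96.6, 15.2 and 5.98 CPM against 58.5, 61.1 and 60.5 CPM. Fabp3, the fatty acid carrier of heart muscle, had 2289.7, 705 and 211 CPM against 1435, 1782 and 1734 CPM. At each of these KKA replicate 1 was within or above the WA range, the other pair was below it and replicate 3 was the lowest. Fetal and hypertrophy genes as a list had a median of -0.71, and 8 of 19 had an edgeR adjusted p under 0.05 without KKA replicate 1, all lower, where 4.63% of all genes did.

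**Figure D4:**
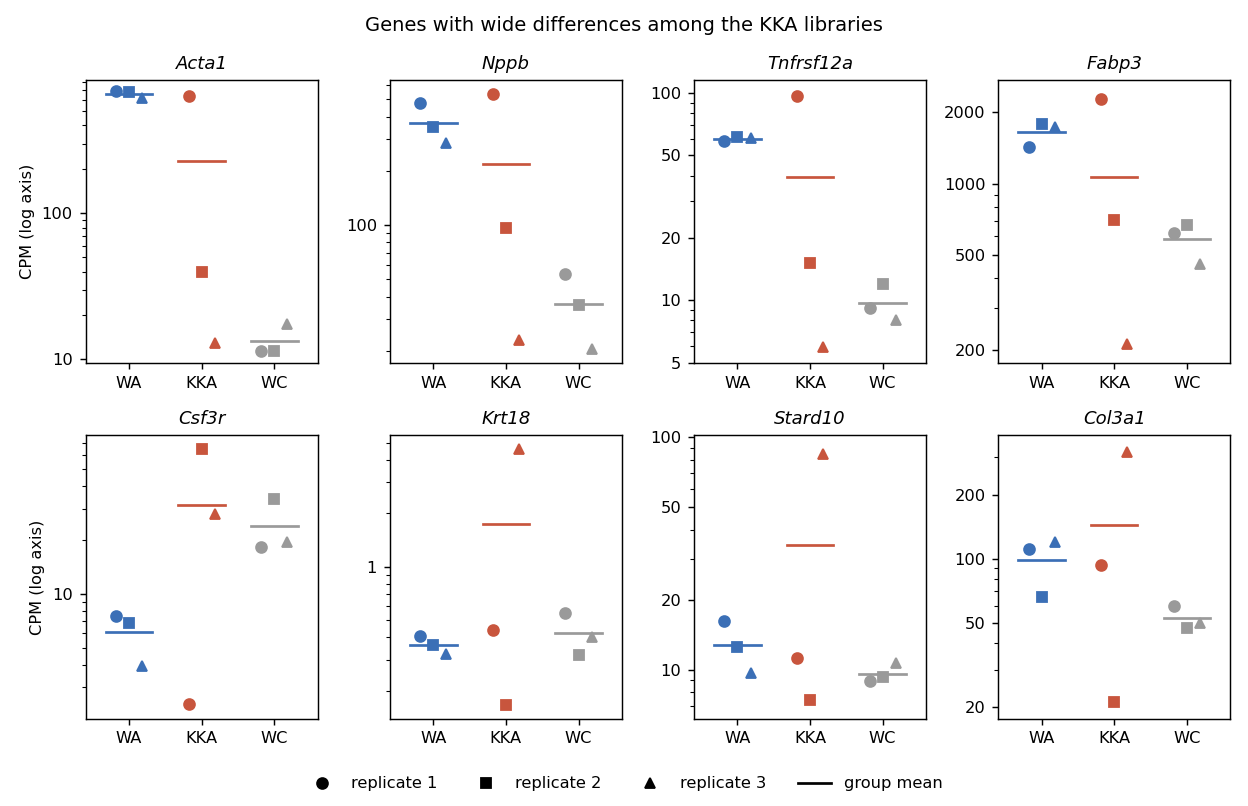
Each panel gives the CPM of 1 gene on a log axis in the WA, KKA and reference WC libraries, with a symbol for each replicate and a line at the group mean. In the top row KKA replicate 1 (circles) lies within or above WA and replicates 2 and 3 lie below it, while in the bottom row Csf3r is highest in replicate 2 and Krt18, Stard10 and Col3a1 are highest in replicate 3.

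Genes of calcium handling, the subject of the series' title, overlapped between the groups at 18 of 19, where 17529 of all 19091 genes did. Calr was the exception. Atp2a2 stood at 4019, 1309.9 and 1030.1 CPM in KKA and 2495, 3633 and 2571 CPM in WA, a difference of -0.45 ± 0.51 on the log2 scale (SE; edgeR adjusted p = 0.825). KKA replicate 1 was the highest of the 6 and the other KKA libraries were the lowest. Pln, which encodes phospholamban, the inhibitor of that pump, had 2804, 1286 and 732 CPM against 2695, 3237 and 1895 CPM. Ryr2, the calcium release channel, had 531, 444 and 209.8 CPM against 439.6, 485 and 354 CPM. Without KKA replicate 1, Atp2a2 (-1.31 ± 0.36, edgeR adjusted p = 0.0463) and Pln (-1.37 ± 0.38, adjusted p = 0.0466) were called together with Asph and Casq2, and Ryr2 was not (adjusted p = 0.539). These 4 of 19 were all lower, where 4.63% of all genes were called lower in that fit. Of 19 calcium handling genes 15 were negative, with a median of -0.33. Josd2 had 54.7, 62.3 and 31.8 CPM in KKA and 50.1, 53.9 and 61.4 CPM in WA, a difference of -0.15 ± 0.26 (edgeR adjusted p = 0.891). Its relative Josd1 had 19.7, 10.3 and 8.80 CPM against 19.2, 21.0 and 18.6 CPM, again with replicate 1 at the level of WA.

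KKA replicates 2 and 3 differed from each other by the markers of other cells that they held. Neutrophil genes had a median of 3.86, yet the list's level was -2.10 in KKA replicate 1, 3.51 in replicate 2 and -0.10 in replicate 3, against -1.73 to -0.83 in WA, and no member separated the groups. Csf3r, the receptor for the growth factor of neutrophils, stood at 2.40, 64.3 and 27.8 CPM in KKA and 7.49, 6.83 and 3.95 CPM in WA. Without KKA replicate 2 the median of the list was 0.80.

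KKA replicate 3 was the highest of the 6 libraries for epicardial and mesothelial genes (level 3.57, other KKA libraries -1.57 and -1.46, WA -1.33 to 0.78). It was also highest for atrial genes (3.38, WA -1.14 to 1.87), adipocyte genes (1.93, WA -1.39 to 0.93), fibroblast genes (1.29, WA -0.15 to 0.11), nerve and Schwann cell genes (1.99, WA -0.72 to -0.48) and platelet genes (1.79, WA -1.57 to -0.94). It was the lowest for ventricular muscle genes (-1.11, WA 0.34 to 0.69) and brown adipocyte genes (-0.51, WA 0.01 to 0.38). The adipocyte list summed to 2146 CPM in KKA replicate 3 and to 4414 to 5468 CPM in the other KKA and WA libraries. The list level weighs all members alike, while Lpl, the most abundant adipocyte member, was lowest in KKA replicate 3 (1265 CPM). Krt18, a keratin of mesothelium, stood at 0.442, 0.168 and 4.58 CPM in KKA and 0.405, 0.365 and 0.322 CPM in WA. Stard10, a lipid transfer protein among the atrial markers, had 11.2, 7.40 and 84.9 CPM against 16.1, 12.5 and 9.73 CPM. Without KKA replicate 3 the median log2 differences of the epicardial, atrial, adipocyte and fibroblast lists turned from 2.38, 0.62, 1.15 and 0.52 to -1.83, -0.46, -0.27 and -0.23. The part of these cell types in the muscle and matrix results was not tested.

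Matrix genes followed that library. Collagens and matrix genes had a median of 0.32 with all libraries and -0.42 without KKA replicate 3. Col1a1, a chain of type I collagen, stood at 48.8, 19.98 and 198 CPM in KKA and 80.1, 47.1 and 41.0 CPM in WA. Col3a1, of type III collagen, had 92.9, 21.2 and 317 CPM against 110.3, 65.7 and 120.0 CPM. KKA replicates 2 and 3 lay on opposite sides of the WA range at both, and no member of the list was higher than WA in every KKA library.

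The kynurenine pathway, Kmo included, had 7 of 11 tested members positive, with a median of 0.31. All KKA libraries lay above WA at 1 member (9.09%, against 5.66% of all genes), Haao. They lay below WA at 2 (18.2%, against 2.52% of all genes), Kmo and Kyat1, an aminotransferase that makes kynurenic acid. With library size as the only scaling 2 members lay above WA and only Kmo below it, where 1104 and 133 of all 19091 genes did. Haao, which acts downstream of Kmo, stood at 0.502, 0.808 and 0.967 CPM in KKA and 0.358, 0.156 and 0.248 CPM in WA, all higher, with a difference of 1.58 ± 0.50 on the log2 scale (SE; edgeR adjusted p = 0.665). Ahr, the receptor that binds kynurenines, had 11.1, 16.9 and 15.7 CPM against 7.75, 11.6 and 11.1 CPM and overlapped at replicate 1.

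**Figure D5:**
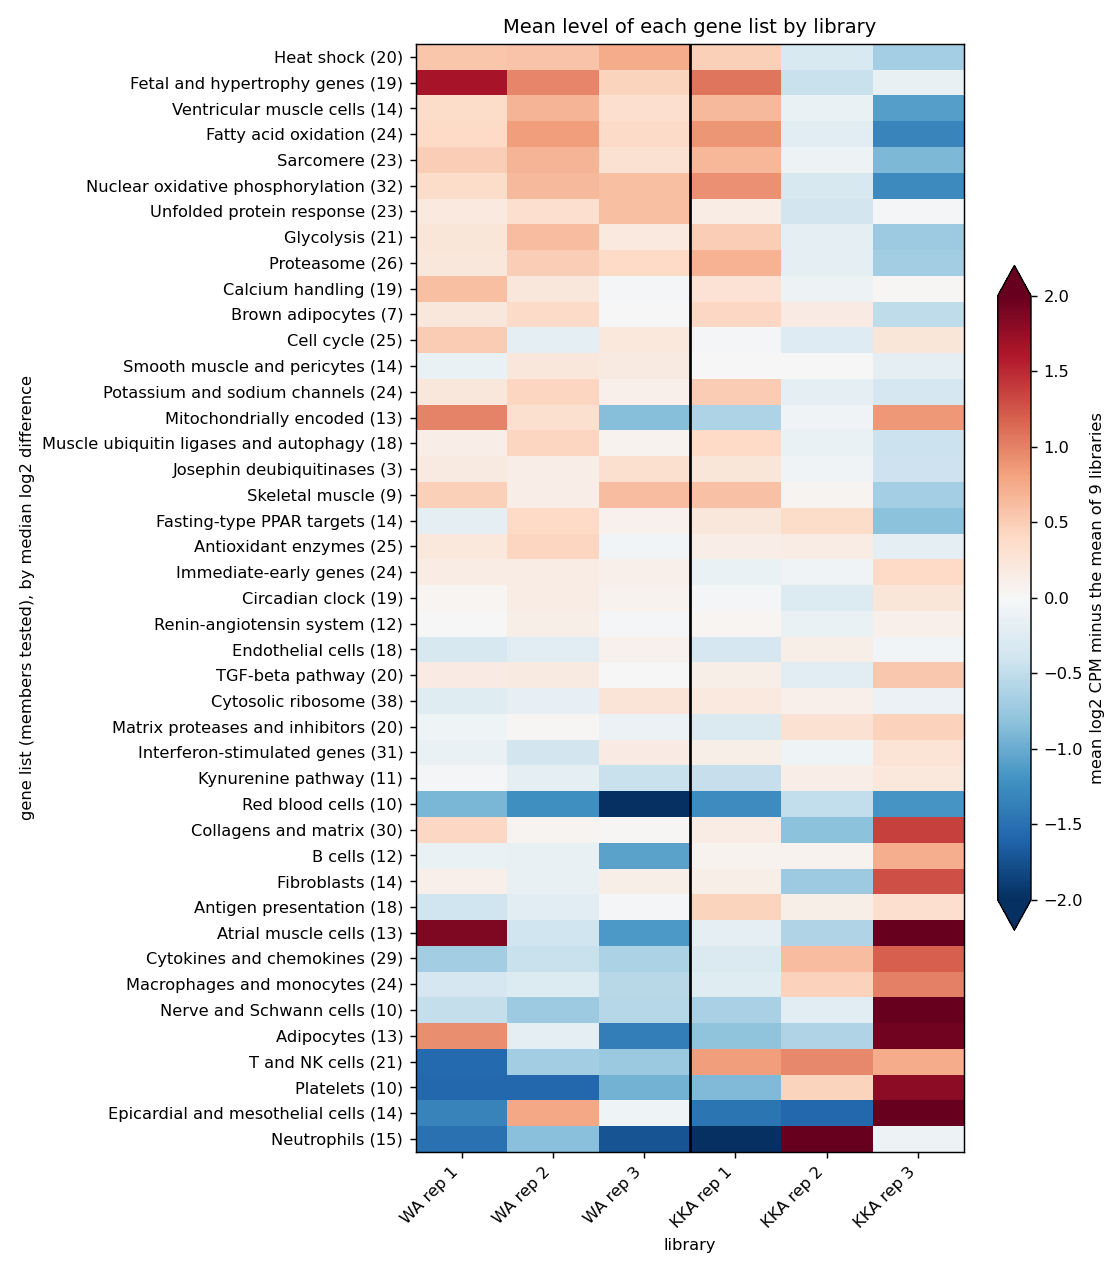
Each row is a gene list with its number of tested members and each column a WA or KKA library. Colour gives the mean log2 CPM of the list minus its mean over all 9 libraries, and values beyond 2 in either direction take the end colour. The level of T and NK cell genes is 0.74 to 0.96 in the 3 KKA libraries and at most -0.69 in WA, antigen presentation, cytokine, macrophage, B cell and platelet lists also have all 3 KKA levels above WA, and muscle and energy lists divide KKA replicate 1 from replicates 2 and 3.

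Other genes at which the groups did not overlap had varied roles. Among those higher in KKA, Inmt, a methyltransferase of indole amines, stood at 28.5, 27.3 and 64.0 CPM against 7.25, 15.9 and 12.3 CPM. Alb, which encodes serum albumin, had 34.5, 32.8 and 44.1 CPM against 10.7, 17.9 and 9.32 CPM, and Pla2g4e, a phospholipase, had 7.89, 15.9 and 10.2 CPM against 3.46, 3.82 and 3.92 CPM. Among those lower in KKA, Tmem267, a predicted membrane protein, had 2.74, 1.74 and 1.70 CPM against 3.79, 7.94 and 7.41 CPM. Pcdh12, a protocadherin of endothelium, had 15.4, 11.7 and 12.4 CPM against 22.1, 21.9 and 26.3 CPM, and Dusp6, a phosphatase of ERK, had 14.6, 12.2 and 14.3 CPM against 21.0, 21.5 and 19.4 CPM. Tmem267 and Pcdh12 passed DESeq2 and the edgeR fit without KKA replicate 1, while the adjusted p of Tmem267 in the fit of 9 libraries was 0.562.

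Comparison within 1 agent took the agent labels as they stand and rested on WA replicate 3, the single WA library labelled Ang II. Against it edgeR called 3 genes: Twsg1 and Zfp628 as higher (0.0105%) and Slc51a as lower in KKA (0.00524%). Twsg1, a binding partner of bone morphogenetic proteins, stood at 0.334 CPM in WA replicate 3 and at 20.4 to 55.5 CPM in the other 8 libraries, and Zfp628 had no count there and 4.25 to 5.02 CPM elsewhere. All 3 calls came from genes at which that 1 library stood apart. With the agent as a covariate and against the WA libraries given PBS 0 genes were called, with 694 and 1200 at an unadjusted p under 0.05. The SE of a comparison with a lone library assumes that it varies like the others.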

How the data were processed

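Per the labels' protocols, RNA came from a Trizol extraction, was enriched for poly(A) and was read paired-end on a NovaSeq. The deposited table holds whole-number counts per Ensembl gene and library, per the file headers, not scaled for depth or gene length. The submitters' processing notes name HISAT2 2.0, StringTie 1.3.0, Bowtie 0.12.2 and build mm8. What each tool did, how reads were counted, with which annotation and whether by strand is not stated in those notes, so reads of overlapping or antisense genes may be shared. Symbols were matched for 55141 of 55401 gene identifiers.

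Tests on these counts used edgeR 4.0.16 under R 4.3.3 (TMM, filterByExpr, robust quasi-likelihood F test, Benjamini-Hochberg adjustment over all genes tested, call at an adjusted p under 0.05). All 9 libraries entered 1 fit grouped by title prefix. SE is the log2 difference divided by the square root of F, and restates the test. CPM uses TMM library sizes, and levels of lists use log2 CPM with a prior count of 2. CPM is not scaled for length, so levels of different genes are not compared. Alternatives included DESeq2 1.42.0 and limma-voom 3.58.1. Every pair of libraries differed beyond counting error (chi-square over degrees of freedom at least 62.1), so none was taken as a duplicate. The fit was tested on simulated data. Replicate numbers are in accession order and pair nothing.

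Named genes were 16 index genes and the 15 smallest p in each direction without overlap of groups and with a mean log2 CPM of at least 1. The 10 widest ranges within each group were added, at a mean log2 CPM of at least 4. Both of these choices left out symbols of predicted or identifier-only gene models. Up to 4 members and the highest member of each of 43 lists were also named, and the text gives a part of all these. Fabp3, Hsp90b1, Dnajc3, Slc51a and Zfp628 were chosen after their values were seen, as were members listed only as separated or called. The comparison, members and lists were chosen with earlier results of these data known. List medians are the same when genes without counts in 1 group are set to a floor of 3 counts per library.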

Additional observations from a re-analysis of the deposited data

How the results depend on the processing

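The count of genes called in KKA minus WA was 0 and became 1 with library size as the only scaling, 1 with no low-count filter, 91 with DESeq2, and 3 against the WA library labelled Ang II. It ranged from 0 to 1709 with 1 library left out, and the 1709 came without KKA replicate 1, where 19742 genes were tested. It was 0 with DESeq2 size factors, a filter of 1 CPM in 3 libraries, limma-voom, the 6 libraries alone, the agent covariate, the WA libraries labelled PBS, and without mitochondrially encoded, haemoglobin and Nppa genes, with 694 to 1310 genes at an unadjusted p under 0.05. Among genes at an unadjusted p under 0.05, 82.9% were higher in KKA, 96.5% with library size only, 61.6% with limma-voom and 50.8% without KKA replicate 1. Genes with all KKA libraries above WA numbered 671, and below it 318, under the filter of 1 CPM, which tests fewer genes, and 133 lay below with library size only. The median range within WA was 1.06 with library size only. The mitochondrially encoded share of KKA minus WA ranged from -6.09 to 6.41 percentage points with 1 library left out, negative without KKA replicate 3 (-6.09) or WA replicate 3 (-5.47).

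Of 70 genes with values in the text, the log2 difference changed sign in 10. With 1 library left out it ranged from -0.36 to 0.085 for Josd2, -0.38 to 0.19 for Ryr2, -0.32 to 0.055 for Myh6, -0.70 to 1.13 for Col1a1, -0.79 to 1.05 for Col3a1, -0.24 to 2.77 for Krt18, -0.46 to 1.90 for Stard10, -0.47 to 0.60 for Twsg1, -0.067 to 0.96 for Zfp628 and -1.13 to 0.085 for Pde2a. It was 0.018 for Myh6 and 0.12 for Ryr2 with library size only, 0.16 for Ryr2 against the WA library labelled Ang II, -0.12 for Col3a1 with limma-voom, and -0.47 for Twsg1 and -0.067 for Zfp628 against the WA libraries labelled PBS. None of the values that changed sign passed the test, and the cause was not tested. No paired analysis was possible because the labels give no replicate numbers. Depth limits the T and NK cell genes, most of which have a mean log2 CPM below 0.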

Other observations

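The median of all genes in KKA minus WA was 0.05 on the log2 scale, and several gene groups not described above had medians between -0.24 and 0.11. The median log2 difference was 0.11 for cytosolic ribosomal proteins, 0.08 for the TGF-beta pathway, 0.07 for endothelial genes, 0.02 for the renin-angiotensin system, -0.01 for the circadian clock, -0.04 for immediate-early genes and -0.05 for antioxidant enzymes. It was -0.17 for mitochondrially encoded genes, -0.20 for smooth muscle and pericyte genes, -0.20 for potassium and sodium channels and -0.24 for the cell cycle. Kcnd3, a subunit of the transient outward potassium current, stood at 10.9, 31.4 and 22.1 CPM in KKA replicates 1, 2 and 3 and at 9.64, 9.90 and 12.0 CPM in WA. Hcn2, a pacemaker channel, had 12.6, 4.59 and 2.60 CPM against 12.6, 14.8 and 10.3 CPM. At both genes KKA replicate 1 was inside the WA range and the other KKA libraries were outside it. Vwf, the von Willebrand factor of endothelium and platelets, had 25.3, 36.6 and 92.7 CPM against 16.4, 28.9 and 25.2 CPM. None of the 3 genes passed edgeR with all libraries (adjusted p of 0.673 for Kcnd3, 0.718 for Hcn2 and 0.683 for Vwf), and all 3 were called without KKA replicate 1, the library nearest to WA, at log2 differences of 1.34, -1.80 and 1.46 (edgeR adjusted p of 0.0122, 0.0119 and 0.043).

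Some genes stood far lower in 1 library than in the others. Pde2a, a phosphodiesterase of cyclic nucleotides, stood at 0.458 CPM in KKA replicate 2 and at 30.2 to 97.9 CPM in the other 8 libraries. Zfp46, a zinc finger gene, stood at 3.32 CPM in WA replicate 1 and at 25.8 to 61.8 CPM elsewhere, and all KKA libraries lay above WA. Lifr, the receptor of leukaemia inhibitory factor, stood at 4.41 CPM in WA replicate 2 and at 28.0 to 48.3 CPM elsewhere.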
